A study of Mus musculus with 10 samples.

Results

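The 10 genes described here make proteins of the BCL-2 family, and they were taken by name from the 55494 genes with a transcript in the deposited files. They were Bcl2, Bcl2l1 and Mcl1, which block cell death, Bax, Bak1 and Bok, which open the outer membrane of mitochondria, and Bcl2l11, Bbc3, Pmaip1 and Bmf, which set the process off. All 10 passed the filter on low counts that left 13729 genes for testing, and none of them was called between the treatments by edgeR's quasi-likelihood test.

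Bulk RNA sequencing was done on leukemia initiating cells (LICs), sorted from the spleens of mouse pups 13 days old. Every pup in both groups carried the RFP/RET transgene (the Eμ-Ret mouse), so the treatments were compared within 1 genotype. Eμ is the enhancer of the immunoglobulin heavy chain, which is active in B lineage cells, and the leukemias of these mice arise from B cell precursors. The Poly(A:U) group had 5 pups given 20 µg of Poly(A:U), a double-stranded RNA made in the laboratory and sensed by Toll-like receptor 3, and the PBS group had 5 pups given 50 µl of buffer. Cells were taken 7 days after treatment, and the stated question was what Poly(A:U) does to these cells. The markers used for sorting and the sex of the pups are not given in the labels.

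BCL-2 proteins act on each other at the mitochondrial outer membrane. BAX and BAK assemble into pores there, which release cytochrome c and start the caspase cascade, while BCL-2, BCL-XL and MCL1 hold them in check. A short helix named BH3 is the part by which these proteins grip one another, and in the BH3-only proteins it is nearly all they share with the rest of the family. In B cell precursors survival signals through the interleukin-7 receptor keep this balance, and MCL1 and BCL-XL are known survival proteins of the lineage.

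The BH3 core was located in the coding sequence of each member, since the proteins bind one another through it. The pattern searched was a leucine codon, 2 codons of any kind and a codon for alanine, isoleucine, leucine, methionine or valine. A glycine or alanine codon and an aspartate codon then followed, all in the reading frame. In the members every annotated coding sequence starting with ATG was searched. In the genes of the whole annotation only the longest one annotated protein_coding was searched. The pattern was found in 10 of 10 members, in their longest coding sequences too. In the annotation 1848 of 21901 genes (8.44%) held it, so a match is a description and not a site. There was 1 place in 9 members and 2 places in Pmaip1, whose sequence is not printed. The 27 bases from the leucine codon to 3 codons past the aspartate are given 5′ to 3′, with the leucine codon and the glycine or alanine and aspartate codons in capitals. Each is from the transcript that held the largest part of its gene's level among those with the core. For Bak1 that transcript is annotated as a target of nonsense-mediated decay and is not the longest.
Bcl2-201, chr1:106712575-106712601, minus strand: CTCcgccgggctGGGGATgacttctct
Bcl2l1-202, chr2:152829697-152829723, minus strand: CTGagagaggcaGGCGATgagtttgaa
Mcl1-201, chr3:95659436-95659462, plus strand: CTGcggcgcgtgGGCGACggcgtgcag
Bax-201, chr7:45465997-45466023, minus strand: CTCcggcgaattGGAGATgaactggac
Bak1-201, chr17:27022531-27022557, minus strand: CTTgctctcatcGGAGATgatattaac
Bok-201, chr1:93686657-93689170, plus strand, across exons 2 and 3: CTGctgcgcttgGGAGATgagctggag
Bcl2l11-205, chr2:128147150-128147176, plus strand: CTGcggcggatcGGAGACgagttcaac
Bbc3-201, chr7:16313773-16313799, plus strand: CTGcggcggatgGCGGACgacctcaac
Bmf-201, chr2:118545100-118545126, minus strand: CTTcagtgtattGCAGACcagttccat

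Coordinates are on mm10 and the sequences are those of GENCODE release M21. Set base against base, Bbc3 shared 22 of the 27 bases with Bcl2l11, and none of the 36 pairs shared more. Bax shared 19 with Bcl2l11, Bmf and Bok 18 each, Bak1 and Mcl1 17 each, Bcl2 16 and Bcl2l1 15. The lowest of the 36 pairs shared 10 bases. Bcl2l11 makes BIM and Bbc3 makes PUMA, the BH3-only proteins known to bind all the survival members.

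Libraries held between 17849707 and 22572180 estimated reads in genes, and 9 of them had between 13396 and 14702 genes with at least 10 reads. PBS 4 stood apart, with 16006 such genes and a median r of 0.939 across genes with the rest, where the median of no other library was below 0.966. PBS 1 to 3 carry library names with a shared start that no other library has. Other name parts are shared by PBS 4 and Poly(A:U) 5, by PBS 5 and Poly(A:U) 1, and by Poly(A:U) 3 and 4, and what any of them stands for is not given in the labels. In CPM, a gene's reads scaled to the size of its library, all 13 B cell precursor markers had at least 1 CPM in each library, with a sum between 12880 and 15640 CPM in Poly(A:U) and between 11020 and 17380 CPM in PBS, so the label of the cells matched their markers. Neutrophil markers (14 genes, 6 of them above 1 CPM in every library) summed to between 32.0 and 280 CPM in Poly(A:U) and between 52.2 and 1120 CPM in PBS, where PBS 1 to 3 held 749.7 CPM or more. Erythroid markers (14 of 15 genes found) summed to between 1768 and 12880 CPM in Poly(A:U) and between 420 and 12370 CPM in PBS, and PBS 1 to 3 were the 3 lowest. Macrophage markers (15 genes) reached 75.0 CPM at most in Poly(A:U) and 233 CPM in PBS, and T cell markers (10 genes) 19.4 CPM in Poly(A:U) and 95.8 CPM in PBS, with PBS 4 the highest for both lists. PBS 1 to 3 had macrophage sums of 144, 176 and 154 CPM, of which Lyz2 gave 107, 141 and 116 CPM. In PBS 4 Cd3e alone gave 53.9 CPM of the T cell sum. Cd3g, Cd4, Trac, Lat and Thy1 were also highest in PBS 4, and Cd3d, Cd8a, Cd8b1 and Cd5 were not. No marker of these lists was at 0 in all libraries, and in bulk samples fewer cells of a type and less RNA per cell cannot be told apart.

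Per transcript length, the family in these cells was led by the survival gene Mcl1 and the pore genes Bax and Bak1. Mcl1 averaged 139 ± 19.8 TPM (reads scaled by transcript length and by library; SD, n = 10), Bax 123 ± 8.54 TPM and Bak1 114 ± 12.6 TPM. The level of Bak1 rests on transcripts annotated as targets of nonsense-mediated decay, since those annotated protein_coding held 7.195 ± 4.04% of it. These 3 levels did not separate beyond their spread, since Mcl1 stood above Bax in 8 of 10 libraries and Bax above Bak1 in 6 of 10. Bcl2l1, which makes BCL-XL, followed at 88.7 ± 10.2 TPM and was below Bak1 in all 10 libraries. Bmf was the highest of the BH3-only genes at 57.7 ± 14.7 TPM, and it lay above Bok in every library with no overlap of their ranges.

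The lower end of the order ran from Bok to Pmaip1. Bok had 21.3 ± 4.22 TPM and stood above Bcl2l11, at 13.5 ± 2.91 TPM, in 9 of 10 libraries. Bbc3 had 6.20 ± 1.82 TPM, Bcl2 4.43 ± 1.12 TPM and Pmaip1 3.02 ± 0.71 TPM, and each of these stood above the next in all 10 libraries although their ranges overlapped. Bcl2, the gene that names the family, was thus the lowest of the 3 survival genes. Its TPM was exceeded by that of Bcl2l1 by a ratio between 13.6 and 27.5 within a library.

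**Figure D1:**
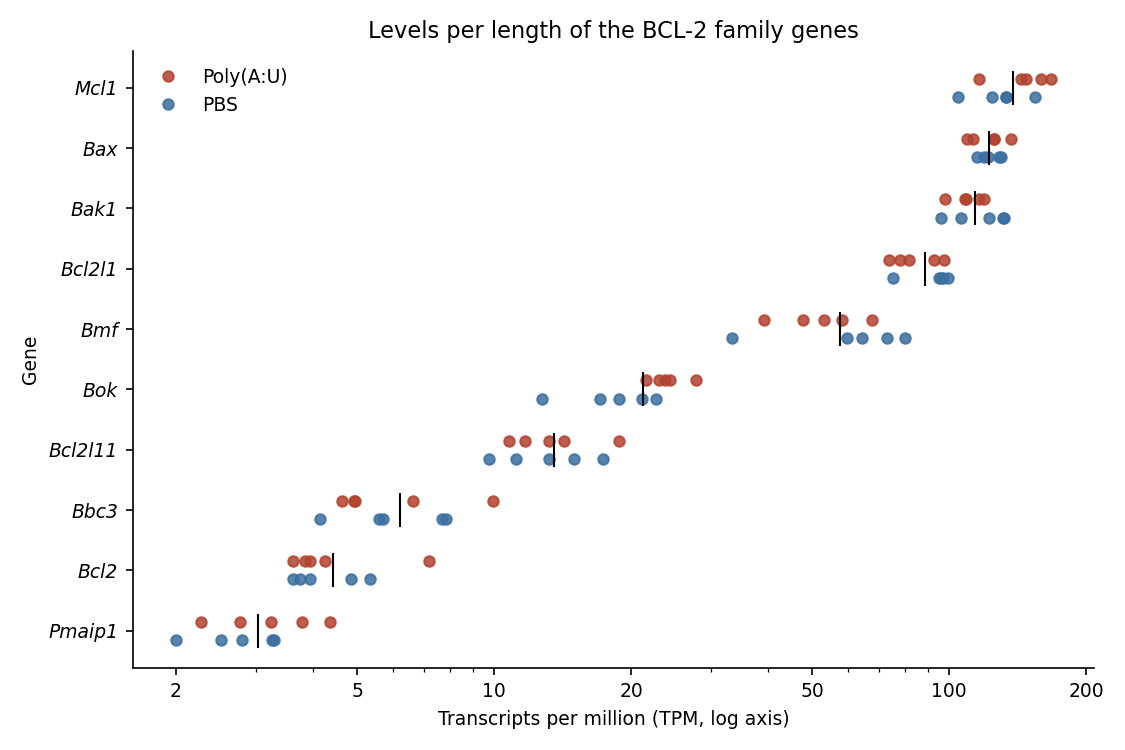
Level of each BCL-2 family gene in TPM on a log axis, with 1 point per library, Poly(A:U) above PBS, and a black tick at the mean of the 10 libraries. Mcl1, Bax and Bak1 overlap at the top, and Bmf and Bok are the only neighbours whose ranges do not meet.

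Summed by role, the survival genes held 41.4 ± 2.20% of the TPM of the 10 genes in Poly(A:U) and 39.8 ± 3.04% in PBS (SD, n = 5 each). The pore genes held 45.2 ± 3.33% in Poly(A:U) and 45.5 ± 3.21% in PBS, and the BH3-only genes 13.4 ± 1.48% in Poly(A:U) and 14.6 ± 2.74% in PBS. The share of the pore genes includes all transcripts of Bak1. The makeup by role therefore differed by less than the spread between libraries. Within the survival genes Mcl1 took 62.1 ± 3.06% of the TPM in Poly(A:U) and 57.2 ± 4.29% in PBS, with overlapping ranges of 58.7 to 65.4% in Poly(A:U) and 51.4 to 62.5% in PBS. The ratio of Mcl1 to Bcl2l1 was 1.74 ± 0.23 in Poly(A:U) and 1.42 ± 0.26 in PBS, also overlapping, and no test was run on these shares.

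Between the treatments, 7 of the 10 members were higher in Poly(A:U) and 3 lower, with small differences throughout. The members' median log2 fold change was 0.04, against -0.0024 for all genes tested, of which 6784 were higher and 6945 lower. The median size of the difference was 0.15 for the members and 0.12 for all genes on the log2 scale. With Benjamini-Hochberg adjustment over all 13729 genes, edgeR's quasi-likelihood test called 0 members and 0 genes (0%), the smallest adjusted p of any gene being 0.677. An unadjusted p below 0.05 was found for 1 member, Bok, and for 1002 genes (7.3%).

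Other tests gave the same count for the members. DESeq2's Wald test called 0 members and 13 of the 13444 genes it adjusted (0.0967%), and limma voom with quality weights called 0 members and 870 of 13729 genes (6.34%). The CPM ranges of the groups overlapped for all 10 members, while 130 of the 13729 genes (0.947%) had groups that did not overlap. The 95% interval of the fold change lay within 2-fold for all 10 members, its lowest end being 0.656 and its highest 1.61. It lay within 1.5-fold for 6 of them, and Bok, Bbc3, Pmaip1 and Bmf were those it did not hold so closely.

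**Figure D2:**
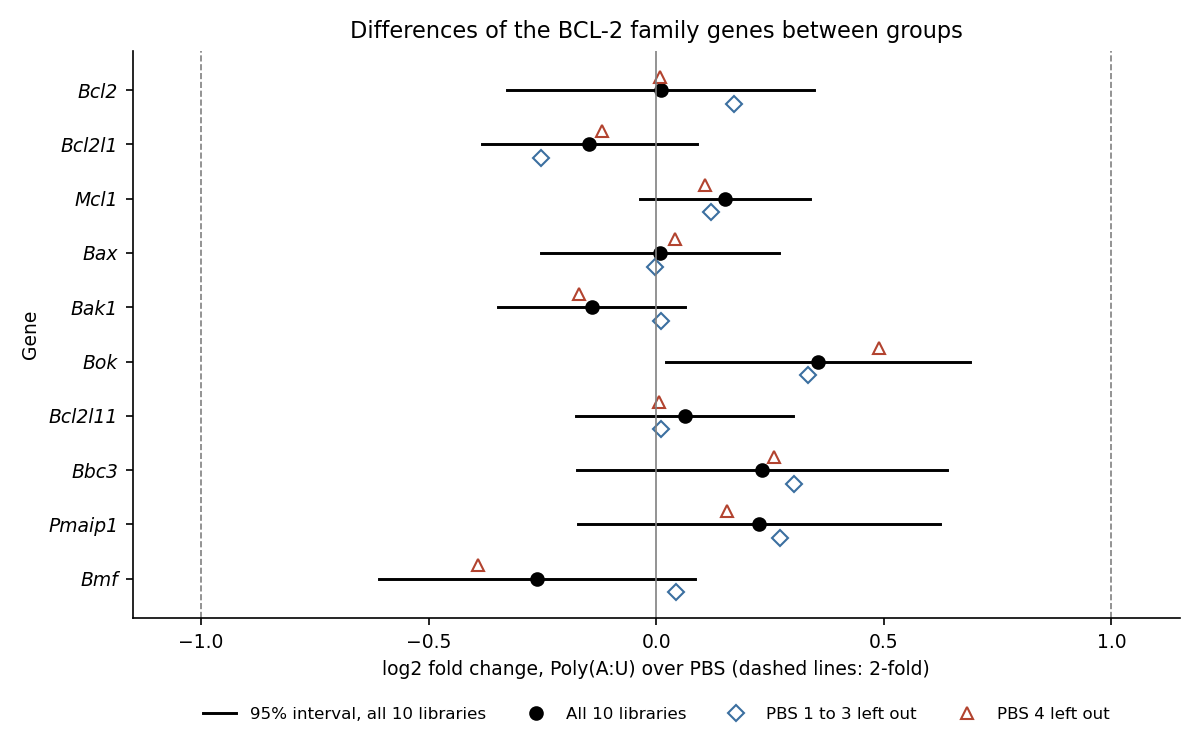
The log2 fold change of each gene, Poly(A:U) over PBS, with its 95% interval from all 10 libraries, and the values with PBS 1 to 3 or PBS 4 left out. No interval reaches 2-fold (dashed lines), the interval of Bok is the only one that leaves out 0, and Bak1 and Bmf move to the other side of 0 without PBS 1 to 3.

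Mcl1 (chr3:95658788-95663176, plus strand) makes a short-lived survival protein that binds BIM and BAK. It had 329, 304, 347, 359 and 334 CPM in Poly(A:U) 1 to 5, and 283, 286, 307, 254 and 350 CPM in PBS 1 to 5. All 5 Poly(A:U) libraries lay above the PBS mean, and 3 PBS libraries lay below every Poly(A:U) library, while PBS 5 was the second highest of all. The difference was 0.15 ± 0.09 (SE) on the log2 scale, with an adjusted p of 0.695 by edgeR's test. It stayed between 0.11 and 0.21 with each library left out in turn.

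Bcl2l1 (chr2:152780668-152831728, minus strand) makes BCL-XL. It had 172, 162, 133, 135 and 135 CPM in Poly(A:U) 1 to 5, and 157, 165, 136, 169 and 176 CPM in PBS 1 to 5. Poly(A:U) 3 to 5 were the 3 lowest libraries, but Poly(A:U) 1 was exceeded by PBS 5 alone. On the log2 scale the difference was -0.15 ± 0.11 (SE; adjusted p = 0.729, edgeR), and it was -0.25 with PBS 1 to 3 left out.

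Bcl2 (chr1:106538178-106714274, minus strand) had 18.7, 20.2, 20.0, 19.6 and 31.5 CPM in Poly(A:U) 1 to 5, and 25.4, 18.4, 25.2, 20.7 and 17.3 CPM in PBS 1 to 5. Poly(A:U) 5 was above all other libraries, and the other 4 Poly(A:U) libraries lay within the PBS range. edgeR gave a log2 fold change of 0.01 ± 0.16 (SE; adjusted p = 0.990). It was -0.15 with Poly(A:U) 5 left out, 0.17 with PBS 1 to 3 left out and 0.31 with all shared name parts as terms. Its sign thus changed with the libraries included, and its size with the terms. Name parts are shared across the treatments only by Poly(A:U) 5 and PBS 4 and by Poly(A:U) 1 and PBS 5, so the value of 0.31 rests on those libraries. Genes that overlap Bcl2 in the annotation (Gm37053, Mir3473f and D630008O14Rik) averaged under 0.02 CPM or 0.

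**Figure D3:**
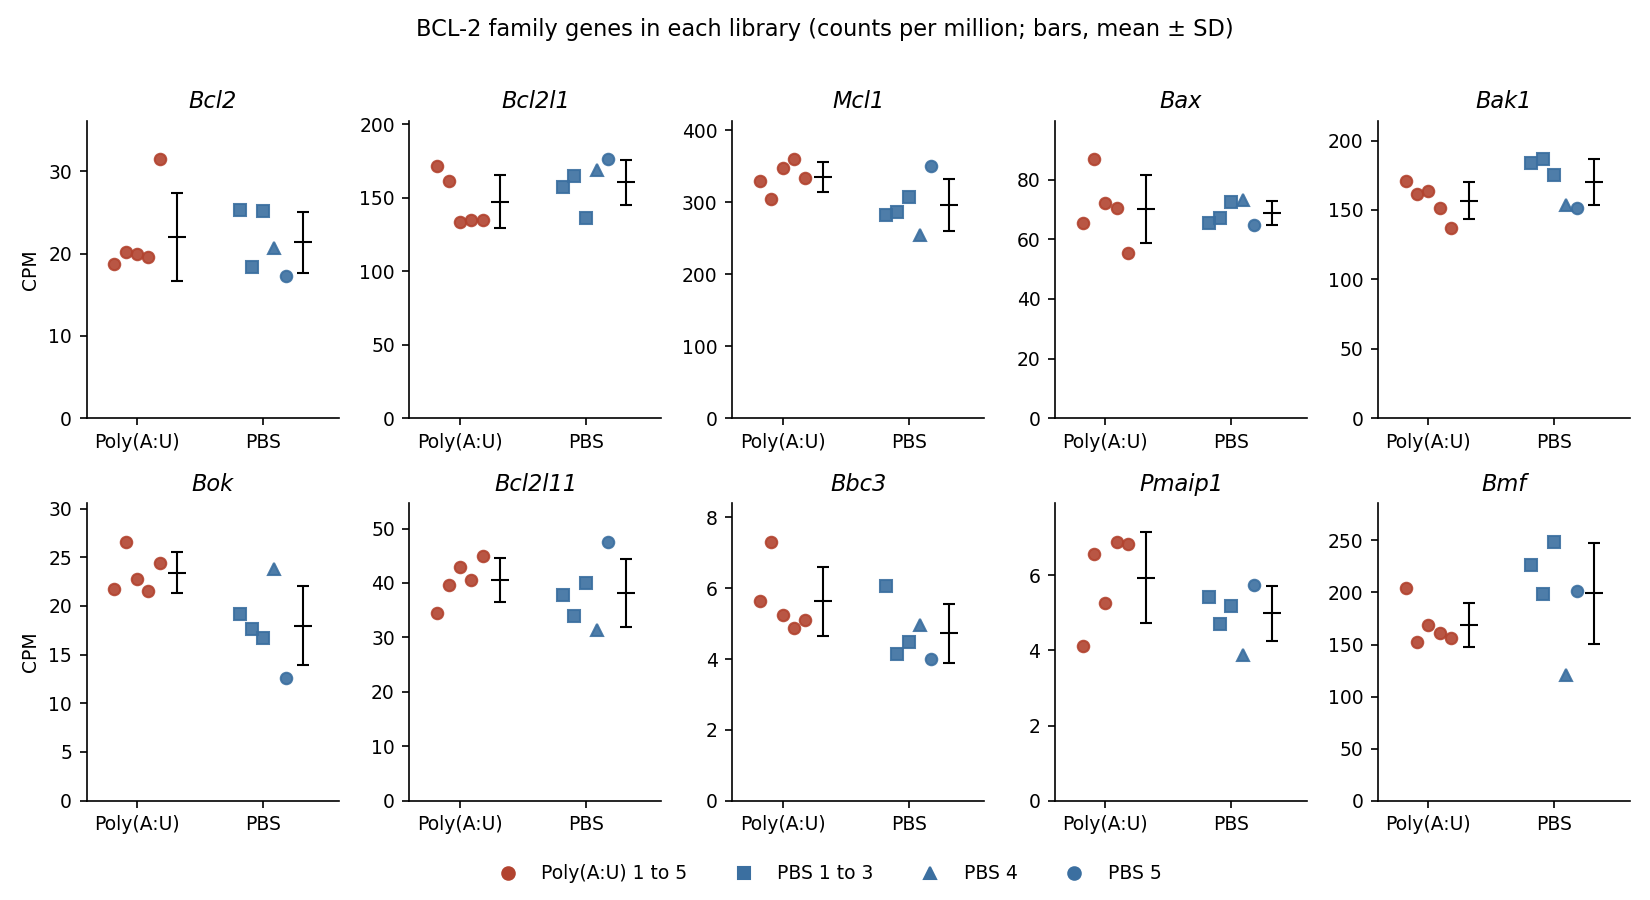
CPM of each gene in each library, from 0, with Poly(A:U) left of PBS and black bars for the mean ± SD of 5 libraries. Squares mark PBS 1 to 3 and a triangle PBS 4. The groups overlap in every panel, Bok has 4 PBS libraries below all Poly(A:U) libraries, and Bcl2 has a single high Poly(A:U) library.

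Among the pore genes, Bok was the member with the smallest unadjusted p. Bok (chr1:93685660-93695764, plus strand) is a pore gene known to act without help from the BH3-only proteins. It had 21.7, 26.6, 22.8, 21.5 and 24.5 CPM in Poly(A:U) 1 to 5, and 19.2, 17.6, 16.7, 23.7 and 12.6 CPM in PBS 1 to 5. Only PBS 4, the library that stands apart, reached into the Poly(A:U) range, and the other 4 PBS libraries lay below it. The log2 fold change was 0.36 ± 0.15 (SE), a 1.28-fold difference with a 95% interval of 1.015 to 1.61, at an unadjusted p of 0.0387 and an adjusted p of 0.677 by edgeR's test.

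The difference in Bok kept its direction under every alternative run, between 0.24 and 0.49 on the log2 scale. It was 0.49 without PBS 4 (adjusted p = 0.215, edgeR) and 0.24 without PBS 5, and 0.33 with PBS 1 to 3 left out. PBS 4 also held the highest macrophage and T cell marker sums, the T cell sum mostly from Cd3e, and the part of these markers in the value of Bok was not tested. With limma voom and quality weights it was 0.38, with an adjusted p of 0.0507, and over the other alternatives the adjusted p lay between 0.215 and 0.918. Within the pore genes Bok took 9.40 ± 0.94% of the TPM in Poly(A:U) and 7.12 ± 1.41% in PBS, and again PBS 4, at 9.17%, lay in the Poly(A:U) range. Its 267 to 600 estimated reads per library came almost wholly from the transcript Bok-201, which held 97.8 ± 1.72% of the gene's TPM (SD, n = 10).

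Bax (chr7:45461697-45466898, minus strand) had 65.6, 86.8, 72.2, 70.5 and 55.5 CPM in Poly(A:U) 1 to 5, and 65.5, 67.2, 72.7, 73.3 and 64.8 CPM in PBS 1 to 5. Both the highest and the lowest library were from Poly(A:U), and the PBS libraries lay between them. A log2 fold change of 0.01 ± 0.12 (SE; adjusted p = 0.989, edgeR) resulted. It was -0.11 without Poly(A:U) 2, and its sign changed between alternatives.

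Bak1 (chr17:27019810-27029009, minus strand) makes BAK, which sits in the mitochondrial membrane before death is triggered. It had 171, 161, 163, 151 and 137 CPM in Poly(A:U) 1 to 5, and 184, 186, 175, 154 and 152 CPM in PBS 1 to 5. PBS 1 to 3 lay above all 7 other libraries, whose highest value was 171 CPM. PBS 4 and 5 averaged 153 CPM, within the Poly(A:U) range. Over all 10 libraries the log2 fold change was -0.14 ± 0.09 (SE; adjusted p = 0.710, edgeR), and it was -0.094 without Poly(A:U) 5 and 0.01 with PBS 1 to 3 left out. On the other strand lie both genes annotated Ggnbp1, at means of 1.30 and 2.87 CPM.

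Bmf (chr2:118528757-118549687, minus strand), a BH3-only gene whose protein is held on the cytoskeleton by dynein light chain in resting cells, had values spread widely within PBS. It had 205, 153, 169, 161 and 156 CPM in Poly(A:U) 1 to 5, and 226, 199, 249, 121 and 201 CPM in PBS 1 to 5. PBS 1 and PBS 3 lay above every Poly(A:U) library, and PBS 4 lay below them all. PBS 2 and PBS 5 were close to each other and to Poly(A:U) 1. For Bmf the log2 fold change was -0.26 ± 0.16 (SE; adjusted p = 0.700, edgeR). It was -0.39 without PBS 4, -0.17 without PBS 3, and 0.04 with PBS 1 to 3 left out, when PBS 4 was 1 of the 2 PBS libraries that remained. With all libraries limma voom gave -0.35 with an adjusted p of 0.0555, where the other alternatives gave adjusted p-values between 0.215 and 0.996.

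PBS 1 to 3, on which the value of Bak1 rests, also held the highest sums of neutrophil and of B cell precursor markers and the lowest of erythroid markers. Their B cell precursor sums were 16450, 17380 and 16580 CPM, against at most 15930 CPM, in PBS 5, among the rest. Their neutrophil sums were 749.7, 1120 and 951.5 CPM, against 280 CPM or less in the other 7 libraries. S100a8 alone was at 131, 221 and 179 CPM in PBS 1 to 3, against at most 53.9 CPM in Poly(A:U) 3 among the rest. PBS 5, with a neutrophil sum of 52.2 CPM, was at 152 CPM in Bak1, but at 201 CPM in Bmf, above the 199 CPM of PBS 2. The part of these markers in the value of Bak1 was not tested, and the name start of PBS 1 to 3 and the treatment can be told apart only through PBS 4 and 5.

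**Figure D4:**
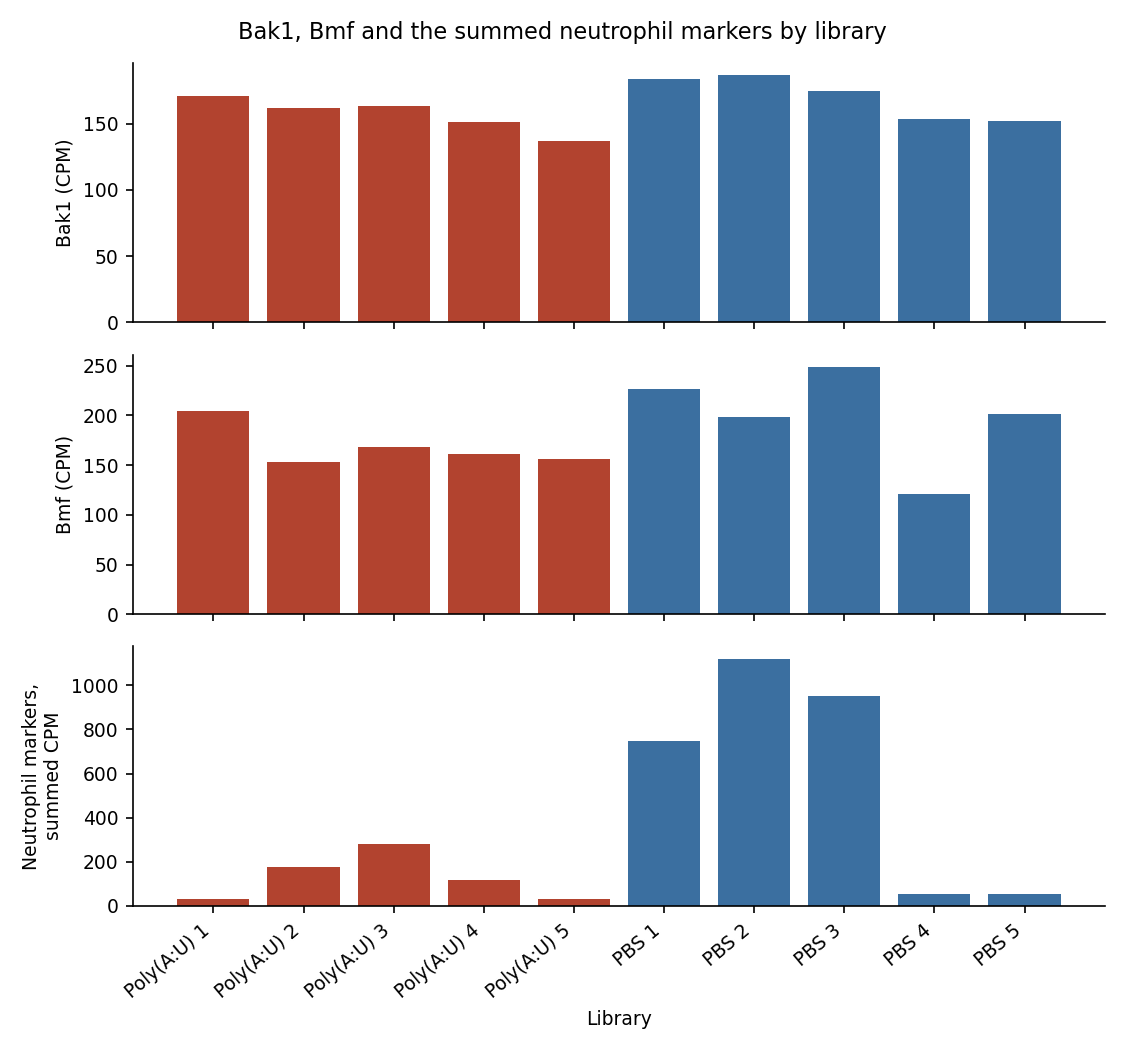
Bak1 and Bmf in CPM and the summed CPM of 14 neutrophil markers, 1 bar per library, with Poly(A:U) left of PBS. Bak1 and the marker sum are highest in PBS 1 to 3, while PBS 4 and 5 lie within the Poly(A:U) range in Bak1. In Bmf PBS 5 is as high as PBS 2, and PBS 4 is the lowest.

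Bcl2l11 (chr2:128126038-128162547, plus strand) makes BIM, the BH3-only protein known for removing B cells that lose survival signals or react to self. It had 34.4, 39.6, 42.9, 40.6 and 45.0 CPM in Poly(A:U) 1 to 5, and 37.7, 34.0, 39.9, 31.3 and 47.6 CPM in PBS 1 to 5. The highest and the lowest library were both from PBS. Its log2 fold change was 0.06 ± 0.11 (SE; adjusted p = 0.887, edgeR), and it was 0.0071 without PBS 4 and 0.14 without PBS 5. Mcl1 exceeded Bcl2l11 in TPM by a ratio of 10.9 ± 1.23 in Poly(A:U) and 9.96 ± 1.03 in PBS.

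Bbc3 and Pmaip1 make PUMA and NOXA, which are known targets of the DNA damage response, and both were low. Bbc3 (chr7:16308393-16318205, plus strand) had 5.63, 7.31, 5.25, 4.87 and 5.11 CPM in Poly(A:U) 1 to 5, and 6.06, 4.15, 4.48, 4.97 and 4.01 CPM in PBS 1 to 5. All 5 Poly(A:U) libraries lay above the PBS mean, and PBS 1 was the second highest of all. With all libraries the log2 fold change was 0.23 ± 0.19 (SE; adjusted p = 0.743, edgeR). It was 0.092 without Poly(A:U) 2, and it became -0.03 when the counts were corrected for effective transcript length, and it rested on 74 to 165 estimated reads per library.

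Pmaip1, on chromosome 18, had 4.12, 6.56, 5.25, 6.89 and 6.84 CPM in Poly(A:U) 1 to 5, and 5.42, 4.71, 5.17, 3.88 and 5.75 CPM in PBS 1 to 5. Poly(A:U) 2, 4 and 5 lay above every PBS library, and Poly(A:U) 1 lay below 4 of them. The log2 fold change was 0.23 ± 0.18 (SE; adjusted p = 0.746, edgeR). It rested on 74 to 150 estimated reads per library, and the 95% interval reached 1.54-fold.

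The files count reads per transcript, so each gene could be read by the transcripts it was made of. The members had 51 transcripts in the files, 25 of which passed the filter. Across all transcripts edgeR's test called 0 of 32435 (0%), and 1402 (4.32%) had an unadjusted p below 0.05. Of the 25 transcripts of the members 1 had such a p, Bcl2l1-201. In Mcl1 all reads were assigned to Mcl1-201, and the counted transcripts of Mcl1, Bcl2 and Pmaip1 all held the BH3 core.

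Bcl2l1 was divided between a pair of transcripts with the same coding length of 233 codons and different annotated starts. Bcl2l1-201 begins at chr2:152831728 and Bcl2l1-202 at chr2:152830666, 1062 bases further along the minus strand. Bcl2l1-201 held 34.7, 49.9, 40.7, 28.5 and 31.4% of the gene's TPM in Poly(A:U) 1 to 5, and 39.3, 49.2, 51.6, 43.2 and 41.4% in PBS 1 to 5. Poly(A:U) 1, 4 and 5 lay below every PBS library, and the groups overlapped. The log2 fold change was -0.45 ± 0.18 (SE) for Bcl2l1-201 and 0.03 ± 0.14 for Bcl2l1-202, with an adjusted p of 1.00 for each by edgeR's test across transcripts. A test of the difference between the transcripts was not run, and the split of reads between them is an estimate of the authors' counter.

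BIM was counted in transcripts with and without the BH3 core. Bcl2l11-205, of 196 codons, held 68.4 ± 6.49% of the gene's TPM (SD, n = 10). Bcl2l11-202, of 91 codons and without the core, held 12.7 ± 1.91%, and the transcript Bcl2l11-206, annotated as not coding, 12.5 ± 3.68%. The share with the core was 74.3 ± 3.43% in Poly(A:U) and 70.4 ± 4.75% in PBS (SD, n = 5 each). The ranges overlapped, at 70.1 to 78.9% in Poly(A:U) and 63.9 to 75.6% in PBS, and no test was run on these shares. Bbc3 was the least settled, with 100, 84.3, 100, 100 and 42.3% of its TPM in Bbc3-201, which holds the core, in Poly(A:U) 1 to 5, and 68.2, 43.3, 66.9, 71.2 and 84.0% in PBS 1 to 5. Poly(A:U) 5 was the lowest of all and the other 4 were above the highest PBS library. Bbc3 had 74 to 165 estimated reads per library, and the part of this depth in the shares was not tested.

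Bak1 was the member whose TPM lay least in transcripts annotated protein_coding. Bak1-204 held 53.6 ± 3.94% of its TPM and Bak1-201 39.2 ± 3.45% (SD, n = 10), and the annotation marks both as targets of nonsense-mediated decay. The transcripts annotated protein_coding held 7.91 ± 5.41% in Poly(A:U) and 6.48 ± 2.50% in PBS. Bak1-204 has an exon 3 that is 5 bases shorter than that of the 209-codon Bak1-202, and Bak1-201 has an extra exon of 20 bases at chr17:27021663-27021682. Their first exons are 177 and 168 bases long, that of Bak1-202 is 599 bases, and 0 of the 4 annotated transcripts join a first exon under 200 bases to the inner exons of Bak1-202. The split of reads between these transcripts is the authors' estimate, and the part of the annotated first exons in it was not tested.

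**Figure D5:**
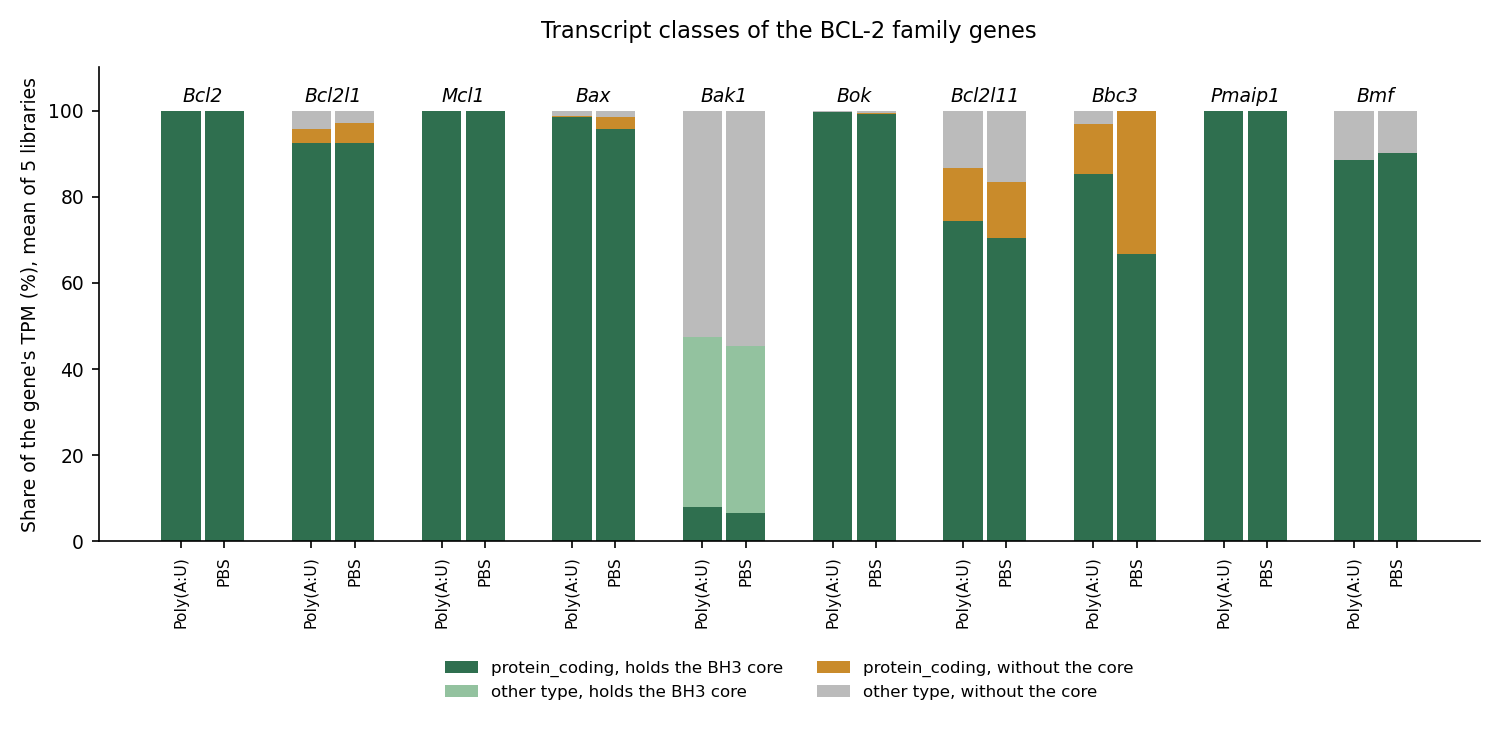
Share of each gene's TPM by transcript class, as the mean of 5 libraries, with Poly(A:U) left of PBS in each pair of bars. Green classes hold the BH3 core, and other types are transcripts not annotated protein_coding. Bak1 is mostly in other types in both groups, and Bbc3 has the widest gap between the bars.

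The remaining transcripts were simpler. Bax-201 held 78.1 ± 3.61% and Bax-203 13.3 ± 2.73% of the TPM of Bax, and transcripts with the core 98.5 ± 0.83% in Poly(A:U) and 95.8 ± 3.62% in PBS. Bcl2-201 held 90.0 ± 5.76% of Bcl2, Bmf-201 89.1 ± 5.85% of Bmf and Pmaip1-201 91.4 ± 18.04% of Pmaip1 (SD, n = 10). The wide spread of Pmaip1-201 came from Poly(A:U) 2 and PBS 5, the only libraries in which it was below 95%, at 46.8% in Poly(A:U) 2 and 71.3% in PBS 5.

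Across the 10 libraries, the genes whose log2 CPM was most like each member's were found among about 8450 coding genes of at least 10 CPM, as a description. The points share the depth and the cell makeup of their library, and no p is given. Bmf was most like Igf2bp3 (r = 0.978), Bax most like Gpx4 (r = 0.978), Ppib (r = 0.975) and the ribosomal protein gene Rpl28 (r = 0.974), and Bcl2 most like Lamc1 (r = 0.958). Bak1 was most like Fermt3 (r = 0.947), Mcl1 like Filip1l (r = 0.932) and Sgk1 (r = 0.923), and Bcl2l1 like Rnf166 (r = 0.901). For Bcl2l11, Bok, Pmaip1 and Bbc3 the highest values were 0.894 (Pecam1), 0.875 (Coq4), 0.859 (Yod1) and 0.803 (Sdf2l1). Without PBS 4 these first values lay between 0.796 for Yod1 and 0.977 for Gpx4.

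Related genes were read from 3 lists, in which edgeR's test called none. The list of other BCL-2 family genes held 17 genes, of which Becn1, Bnip3, Bnip3l and Rad9a are not members of the family proper. Of the 17 genes 10 were tested, with 7 higher, these among them, and 3 lower in Poly(A:U). The median log2 fold change was 0.05, and 0 were called by edgeR, DESeq2 or limma voom. Becn1, an autophagy gene with a BH3 motif, was the highest at 115 ± 8.96 TPM (SD, n = 10), followed by Bnip3l at 82.9 ± 10.5 TPM and Bcl2l12 at 63.8 ± 7.04 TPM. The smallest unadjusted p belonged to the survival gene Bcl2l2, with 11.4 ± 2.92 CPM in Poly(A:U) and 9.81 ± 1.64 CPM in PBS, a log2 fold change of 0.18 ± 0.18 (SE; adjusted p = 0.792, edgeR). Bad, which is switched off by survival kinases, gave -0.12 ± 0.14. The near-identical copies Bcl2a1a, Bcl2a1b and Bcl2a1d did not pass the filter, and their single levels are uncertain.

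Of 20 genes that act at the outer membrane or after it opens, all were tested, with 11 higher and 9 lower, a median of 0.02 and 0 called by any of the 3 tests. Vdac2, a channel that binds BAK, had the highest level at 153 ± 15.6 TPM, with a log2 fold change of -0.02 ± 0.08 (SE). Birc5, the survivin gene, had 104 ± 4.97 CPM in Poly(A:U) and 90.8 ± 14.6 CPM in PBS, a log2 fold change of 0.17 ± 0.11 (adjusted p = 0.701, edgeR). Dffa, the inhibitor of the caspase-activated nuclease, had the smallest unadjusted p of the list and gave -0.17 ± 0.09, Birc3 gave -0.24 ± 0.17 and Vdac1 0.09 ± 0.10. None of the 3 lists held a gene with an unadjusted p below 0.05 by edgeR's test.

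The list of regulators of MCL1, BIM or the family's transcription held 27 symbols, with March5 under a pair of spellings. Of these 26 were in the annotation and 24 were tested, with 9 higher and 15 lower and a median of -0.08. By edgeR's test and DESeq2 0 were called, while limma voom called 3, Myc, Foxo1 and Foxo3, against 0 of the other 2 lists and 6.34% of all genes. Myc had 73.5, 78.0, 75.7, 81.9 and 116 CPM in Poly(A:U) 1 to 5, and 30.2, 30.8, 33.5, 96.1 and 68.4 CPM in PBS 1 to 5. PBS 1 to 3 were the 3 lowest libraries, and PBS 4 the second highest. The log2 fold change was 0.68 ± 0.35 (SE; adjusted p = 0.695, edgeR) and 1.08 by limma voom (adjusted p = 0.0313). Foxo3, a factor known to drive the transcription of Bcl2l11 and Bbc3, had 96.3 ± 9.49 CPM in Poly(A:U) and 109 ± 19.9 CPM in PBS, a log2 fold change of -0.20 ± 0.12 by edgeR (adjusted p = 0.698) and -0.35 by limma voom (adjusted p = 0.0331). Foxo3 stood at 129, 115 and 119 CPM in PBS 1 to 3, above all 7 other libraries, whose highest was Poly(A:U) 5 at 110 CPM. Foxo1 had 727, 557, 633, 670 and 801 CPM in Poly(A:U) 1 to 5, and 926, 930, 830, 466 and 709 CPM in PBS 1 to 5. Here too PBS 1 to 3 lay above the other 7 libraries, and PBS 4 was the lowest. Foxo1 gave -0.22 ± 0.16 by edgeR and -0.40 by limma voom (adjusted p = 0.038). In all 3 genes called by limma voom PBS 1 to 3 thus stood at 1 end of the order. These libraries held the highest sums of neutrophil and of B cell precursor markers, and the part of those markers was not tested.

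The other regulators named by the rule did not pass any of these tests. Stat5b, which carries the interleukin-7 signal, had the smallest unadjusted p of the list and a log2 fold change of -0.20 ± 0.10 (SE; adjusted p = 0.695, edgeR). Dynll1, a dynein light chain gene like Dynll2 of the same list, had the highest level at 544 ± 57.3 TPM and gave 0.12 ± 0.13. Tcf3 at 446 ± 49.6 TPM gave -0.09 ± 0.10, and Myb at 208 ± 39.7 TPM gave 0.12 ± 0.09.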

How the data were processed

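RNA of sorted LICs was sequenced in 10 libraries, each from a separate pup by the series' design text. The authors deposited for each library, per the file headers, an estimated count of reads, a TPM value and an effective length for 142333 transcripts, and for the series a table of edgeR-normalized CPM, used as a signal for 13699 genes in 1 alternative. Per the submitters' processing notes the tools were DRAGEN and edgeR 3.38.4 on build mm10, while the sources used here do not give the settings, the annotation release or the use of strand. Without strand, reads of overlapping genes cannot be told apart.

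Genes were assembled by the GENCODE M21 map for mm10, in which 538 transcripts were missing, holding 0.046% to 0.0695% of a library's reads. Estimated counts were summed per gene and rounded to whole numbers, and TPM were summed. Genes were kept by filterByExpr (minimum count 10, 5 libraries) and fitted with edgeR 4.0.16 in R 4.3.3 (TMM factors, robust quasi-likelihood, treatment as the only term), with two-sided p-values, Benjamini-Hochberg adjustment over all genes and a threshold of 0.05. The 95% intervals cover the spread between pups and counting error together. Transcripts were fitted alike. Alternatives were DESeq2 1.42.0, limma 3.58.1 (voom with quality weights, and limma on log2 of the authors' deposited values plus 0.5), other factors and filters, a length offset, a replicate block, libraries left out and terms for library names. The scripts were tested on simulated data.

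Every member is named, with its transcripts of at least 10% of its TPM. From 3 lists of related genes the text names those called or else the 3 with the smallest unadjusted p and the 3 with the highest TPM. Those called by limma voom were also named, and of the 3 genes most like each member the first or more. The members, lists and markers were chosen with earlier results of these data known.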

Additional observations from a re-analysis of the deposited data

Results flagged for a closer look

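In each group of 5 libraries, the CPM of every member and the share of its main transcripts were looked at for a library whose gap to the nearest of the others took up more than 0.71 of the group's range. Of 50 such groups 5 were picked out, where chance picks about 1 in 20 for values without a limit. That rate applies to CPM, where the 10 members in both treatments gave 1 result, Bcl2, no more than chance gives. Shares end at 100%, so that rate does not hold for them, and the pair of results for Bbc3 in Poly(A:U) 5 rests on the same reads. Bcl2 stood at 31.48 CPM in Poly(A:U) 5, against 18.7 to 20.2 CPM in the other 4 Poly(A:U) libraries. The same library gave Bbc3-201 42.34% of the TPM of Bbc3, against 84.3% or more in the other 4, and gave Bbc3-202, which lacks the BH3 core, 57.66%, where the other 4 had 0%. Pmaip1-201 held 46.81% of the TPM of Pmaip1 in Poly(A:U) 2, against 95.6% or more in the other Poly(A:U) libraries, and 71.27% in PBS 5, against 100% in the other PBS libraries. Bbc3 and Pmaip1 had 74 to 165 and 74 to 150 estimated reads per library, and the part of this low depth in their transcript shares was not tested.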

How the results depend on the processing

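Under the 23 alternatives, 0 members were called in each, and Bcl2l1, Mcl1, Pmaip1 and Bok kept the sign of their log2 fold change in all that gave a value (Bbc3 and Pmaip1 have none under the filter of 10 CPM). The count of genes called over all genes was 13 with DESeq2, 870 with limma voom, 1 on the authors' deposited values, and between 0 and 18 with single libraries left out, 18 being without PBS 5. Of the related genes limma voom called 3. Causes of these shifts were not tested. The sign turned for members with small differences. Bcl2 was at -0.0020 with DESeq2's size factors, -0.0016 with DESeq2 and -0.11 with limma voom, 0.31 with all name parts as terms, and ran from -0.15 to 0.074 with single libraries left out. Bax was at -0.0032 with those factors and with DESeq2, -0.0014 under the 10 CPM filter, -0.0185 with the length offset, -0.033 on the authors' deposited values, -0.0021 without PBS 1 to 3, -0.0075 with their name start as a term and -0.24 with all name parts as terms, and ran from -0.11 to 0.084 with single libraries left out. Bbc3 was at -0.027 with the length offset and -0.035 on the deposited values. Bak1 was at 0.010 and 0.0051, and Bmf at 0.043 and 0.039, without PBS 1 to 3 and with their name start as a term. With all name parts as terms Bmf was at 0.14 and Bcl2l11 at -0.024.

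The replicate numbers did not pair the libraries, since same-numbered libraries had correlations of their deviations between -0.183 and 0.14. With the replicate block 0 genes, 0 members and 0 transcripts were called, and Bax was at -0.010.

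At 5 libraries a group, the 95% interval of a member had a median half-width of 0.30 on the log2 scale, widest at 0.41. Narrowest was Mcl1 at 0.19. Those intervals carry no adjustment for the number of genes, and a p above the threshold does not show that the treatments left these genes alike. Transcript shares rest on the authors' estimation.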
